A study of Mus musculus with 6 samples.

Results

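The 2'-5'-oligoadenylate synthetase genes are described here in cultured mouse CD4+ T cells with and without idelalisib. The 8 genes were taken by symbol from a deposited count table of 54532 genes, and are Oas1a, Oas1b, Oas1c, Oas1g, Oas2, Oas3, Oasl1 and Oasl2. The study set 3 idelalisib cultures against 3 control cultures. Both groups held CD4+ T cells from C57BL/6 spleens that had been in Th1-polarising culture for 72 h, and only the idelalisib group also received idelalisib, a drug that blocks the PI3K delta kinase of lymphocytes. The labels call the replicates biological without saying whether each came from its own mouse, so a p-value here covers the variation among cultures, part of which may be technical. Dose and solvent are likewise not given in the sources used here. The series asks how the drug acts on activation, proliferation, differentiation and survival of the cells.

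Oligoadenylate synthetases bind double-stranded RNA and then join ATP into short chains with 2'-5' bonds, known as 2-5A. These chains act as a second messenger of antiviral defence, which limits virus growth and protein synthesis. The genes are classic targets of interferon: a factor complex that holds STAT2 and IRF9 binds the interferon-stimulated response element (ISRE) in their promoters. In the mouse the family is larger than in humans, because the Oas1 gene was copied several times, and some copies no longer make 2-5A.

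Library totals ranged from 13372318 to 16035945 counts with idelalisib and from 14879325 to 16770452 counts in controls, and a level of 1 CPM (counts per 1000000 counts of the TMM-scaled library total) stands for 14.0 to 16.7 scaled reads in a library. Along the second principal component, with 12% of the variance, idelalisib replicate 2 lay away from replicates 1 and 3. Transcripts of all 10 CD4+ T cell markers were present, 2 of them called higher and 2 lower, with a summed level of 3470 to 3800 CPM with idelalisib and 4050 to 4100 CPM in controls. Over all tested genes 22.2% were called higher and 22.4% lower. Markers of other cells were low but did not all stay level. Of 6 tested B cell markers 5 were higher with idelalisib, and the summed level of the 9 listed was 11.9 to 14.0 CPM with idelalisib against 6.15 to 7.20 CPM in controls. The share called depends in part on the count filter. Blk, at 1, 4 and 4 counts in controls, would not have passed it on its controls alone. Nor would Cd79a (11, 15 and 8), Cd79b (12, 8 and 11) or Bank1 (15, 9 and 10). The remaining called marker, Pax5 at 29, 14 and 13 counts in controls, would have passed. The untested Ms4a1 (9, 6 and 9 counts with idelalisib, 14, 11 and 3 in controls), Cr2 and Fcer2a overlapped between groups. Of the CD8 pair 1 was called higher, and it summed to 7.24 to 9.5 CPM with idelalisib and 4.43 to 7.86 CPM in controls. Natural killer markers, with 1 of 2 tested called higher, summed to 24.1 to 29.3 CPM with idelalisib and 16.9 to 19.9 CPM in controls. Nearly all of this sum came from Eomes, called higher (log2 fold change 1.69), and Prf1, not called. Klrb1c, Klra4 and Klra8 had no more than 4 counts in any library, and Ncr1 was at 0 throughout. Plasmacytoid dendritic cell markers summed to 47.6 to 52.1 CPM with idelalisib and 49.7 to 52.2 CPM in controls, with Siglech and Klk1 at 0 throughout. Of the 5 tested in that list, Smim5 (log2 fold change 1.07) and Lair1 (0.82) were called higher. Tcf4 (-0.37), at 22.4 to 27.1 CPM with idelalisib and 29.1 to 33.9 CPM in controls, was called lower. Smim5 (edgeR adjusted p = 0.0444), at 9, 8 and 8 counts in controls, would have missed the count filter on its controls alone. Monocyte and macrophage markers summed to 10.8 to 14.4 CPM with idelalisib against 18.6 to 18.9 CPM in controls. Most of this sum came from Cd68, the 1 of 2 tested genes that was called lower (log2 fold change -0.66). Mrc1 was tested and not called (-0.86). The untested Lyz2 went the other way, with 9, 12 and 7 counts with idelalisib and 3, 2 and 1 in controls. Conventional dendritic cell markers summed to 8.42 to 11.7 CPM with idelalisib and 11.6 to 12.9 CPM in controls, with overlapping ranges. Of the 2 tested, Zbtb46 (-0.48), which made up most of the sum, and Flt3 (0.66) were not called. The granulocyte list had 119 to 148 CPM with idelalisib and 48.3 to 50 CPM in controls, nearly all of it from Ly6g and Cxcr2, both called higher, while Retnlg was at 0 and S100a8, S100a9 and Csf3r had no more than 3 counts in any library. The part of such cells in the results below was not tested.

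All 8 genes lie on chromosome 5 (build mm10) in 2 clusters. Oasl2 (ENSMUSG00000029561, 114896936 to 114912234) and Oasl1 (ENSMUSG00000041827, 114923240 to 114937915) are neighbours on the plus strand. The other cluster runs in the order Oas2 (ENSMUSG00000032690, 120730333 to 120749853), Oas3 (ENSMUSG00000032661, 120753098 to 120777661), Oas1c (ENSMUSG00000001166, 120800194 to 120812514), Oas1b (ENSMUSG00000029605, 120812635 to 120824163), Oas1g (ENSMUSG00000066861, 120876142 to 120887613) and Oas1a (ENSMUSG00000052776, 120896256 to 120907521). Of these 6 only Oas1b is on the plus strand. It starts 121 bases from the start of Oas1c, and both genes run outwards from that interval.

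The start regions of Oas1a, Oas1g and Oas1b are shown because they carry the same letters of an interferon response element. The ISRE core searched was GAAA, any 2 bases and GAAA, on either strand, in windows of 250 bases before to 50 bases after each RefSeq start (GRCm38.p6). It was found in 4 of the 6 members with a RefSeq window, namely Oas1a, Oas1c, Oas1g and Oas3, while 3.44% of 32851 windows across the genome hold it. RefSeq windows for Oas2 and Oas1b were not in the table used. The windows of Oas1f and Oas1h, further copies with almost no counts, held no ISRE core. In Oas1a and Oas1g a pair of cores overlap into a word of 16 bases, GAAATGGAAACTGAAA, and the interval between Oas1b and Oas1c holds this word too, reading towards Oas1b. It ends 5 bases before the start of Oas1a, 3 bases before that of Oas1g and 7 bases before that of Oas1b (GENCODE M21 start). From the other side it lies 99 to 114 bases before the start of Oas1c. Only 7 of the 32851 windows hold these letters on either strand, and they belong to Oas1a, Oas1g, Oas1c, Apol9a and Apol9b. The 4 sequences below read 5' to 3' towards the gene named, with the ISRE cores in capitals, and come from chr5:120907508-120907567 (minus strand), chr5:120887594-120887653 (minus), chr5:120812591-120812650 (plus) and chr5:120777703-120777756 (minus).
Oas1a: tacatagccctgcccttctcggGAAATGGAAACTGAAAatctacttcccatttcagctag
Oas1g: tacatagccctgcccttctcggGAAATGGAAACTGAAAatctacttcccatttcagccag
Oas1b: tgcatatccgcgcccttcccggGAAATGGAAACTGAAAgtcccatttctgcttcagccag
Oas3: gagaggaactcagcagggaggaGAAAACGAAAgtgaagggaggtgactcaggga

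The windows of Oasl1 and Oasl2 held no ISRE core in these letters. The gamma-activated site, an element of the response to interferon gamma, was searched as TTC, any 3 bases and GAA, a pattern that reads the same on both strands. It was present in the window of Oas1a alone among the 6, between positions -98 and -90 from the start, and in 8.30% of all windows. The window of Oasl2, whose transcript had the largest fold change of the family (below), is given whole for comparison and lies at chr5:114896684-114896983 on the plus strand.
Oasl2: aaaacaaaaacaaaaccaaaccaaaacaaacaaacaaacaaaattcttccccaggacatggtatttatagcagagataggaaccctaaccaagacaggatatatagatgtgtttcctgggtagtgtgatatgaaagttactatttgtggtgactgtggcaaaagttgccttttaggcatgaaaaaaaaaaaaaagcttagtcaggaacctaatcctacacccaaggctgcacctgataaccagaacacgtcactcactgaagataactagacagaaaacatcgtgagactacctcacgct
A match or its lack describes only these letters in these windows, and no binding was measured in the data.

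**Figure D1:**
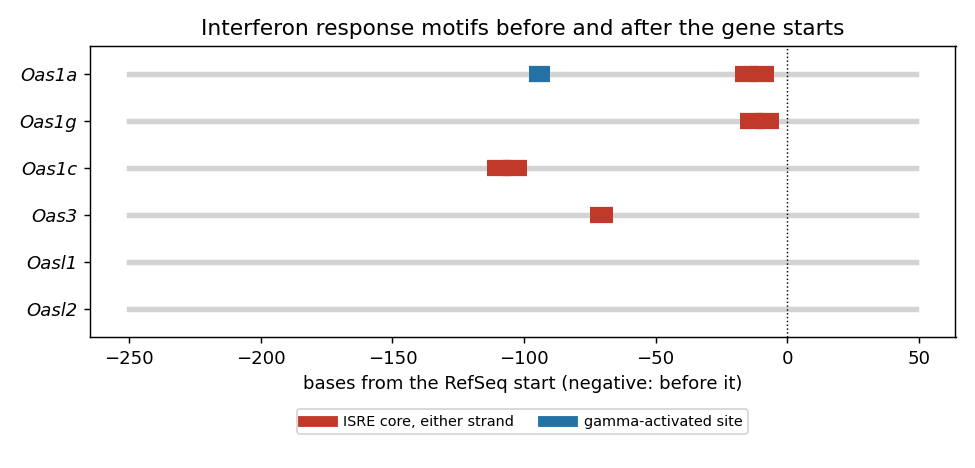
Position of interferon response motifs in the 6 RefSeq windows of family members. The x axis is the distance in bases from the start, red blocks are ISRE cores and the blue block is a gamma-activated site. The cores of Oas1a and Oas1g end 5 and 3 bases before the start, those of Oas1c lie 99 to 114 bases before it, and Oasl1 and Oasl2 have none.

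Transcripts of the family were higher with idelalisib. Of the 8 genes, 7 had enough counts to be tested and all 7 rose (edgeR quasi-likelihood test, adjusted p under 0.05, n = 3 per group), with a median log2 fold change of 2.08 against 0.01 over all 14530 tested genes. Of all tested genes 22.2% were called higher and 22.4% lower. The number of members tested depends in part on their levels with idelalisib. Oas2, at 6, 6 and 9 control counts, and Oasl2, at 19, 9 and 13, would not have passed the count filter on their controls alone. The folds ran from 2.55 for Oas1c to 19.2 for Oasl2. In each of the 7, every idelalisib library was above every control library, which held for 27.5% of all tested genes. Summed over the 8 genes the level was 268, 247 and 266 CPM in the idelalisib libraries and 55.6, 58.9 and 47.4 CPM in the control libraries. In bulk RNA, more cells with a transcript and more transcript in each cell cannot be told apart.

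**Figure D2:**
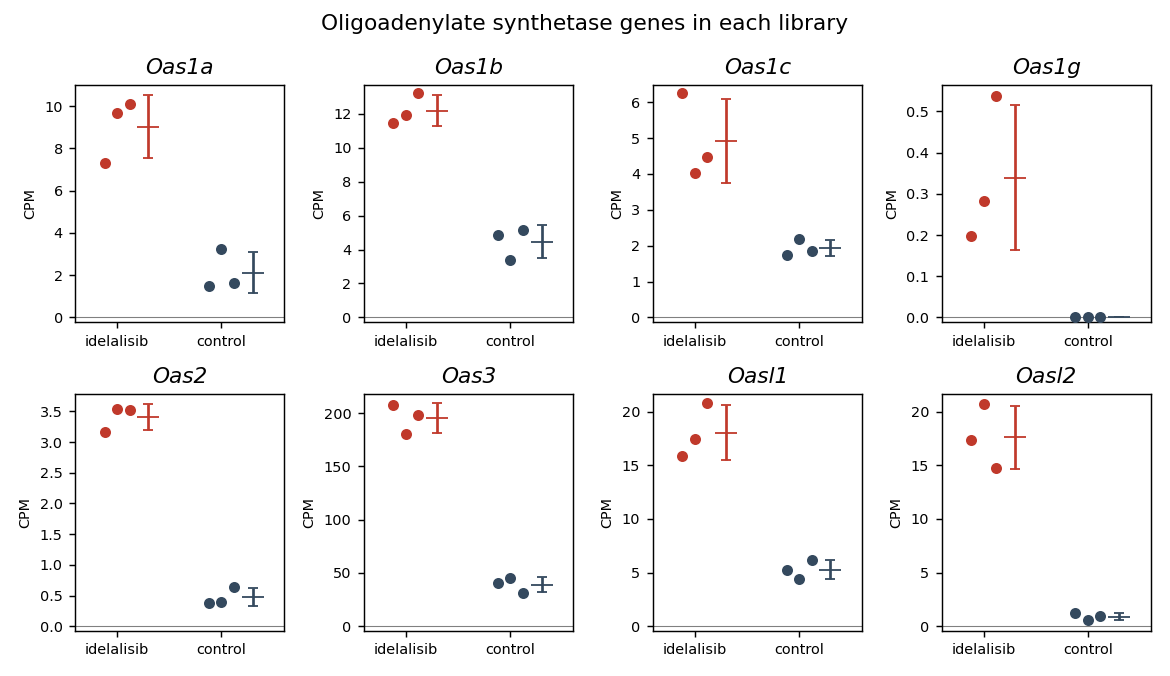
CPM of each family member in every library (TMM-scaled), idelalisib libraries in red and control libraries in blue; the side bars are the mean and SD of 3 libraries, and each panel has its own y axis from 0. The groups do not overlap in any panel, and Oas3 is the highest at 180 to 207 CPM with idelalisib against 31.1 to 44.9 CPM in controls.

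Oas1a encodes an active synthetase of the mouse. It had 7.31, 9.70 and 10.1 CPM in the idelalisib libraries and 1.5, 3.24 and 1.64 CPM in the control libraries. Control replicate 2 was the highest control, at about 2 times the other controls, and still lay below all idelalisib libraries. The log2 fold change was 2.08 (SE 0.27, edgeR adjusted p = 3.82e-05). It was 2.51 without control replicate 2.

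Oas1g is the closest relative of Oas1a, with 96.7% identical bases over their coding sequences of 1104 bases each. It had 3, 4 and 9 counts in the idelalisib libraries and no count in any control library, too few to be tested. With 3 counts set as the limit over the control group, and the 16 idelalisib counts taken as observed, Oas1g was 5.22-fold higher with idelalisib. The counting error of those 16 counts was not included, so this is not a strict lower limit. Oas1a and Oas1g cannot be cleanly separated by short reads: 57.6% of the 50-base words of Oas1a transcripts and 45.7% of those of Oas1g occur in another gene, mostly in each other. The summed pair had 7.51, 9.98 and 10.6 CPM with idelalisib and 1.5, 3.24 and 1.64 CPM in controls, and the mean was 4.41-fold higher with idelalisib.

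Oas1b is the gene that gives some wild-derived mice resistance to flaviviruses. Laboratory strains such as C57BL/6 carry a shortened, non-protective form, and the deposited table lists the gene as a polymorphic pseudogene. Its transcript was present all the same, at 11.4, 11.9 and 13.2 CPM in the idelalisib libraries and 4.88, 3.37 and 5.15 CPM in the control libraries. The log2 fold change was 1.45 (SE 0.19, edgeR adjusted p = 3.49e-05).

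Oas1c, the divergent neighbour of Oas1b, encodes a protein without synthetase activity. It had 6.25, 4.04 and 4.48 CPM in the idelalisib libraries and 1.75, 2.18 and 1.86 CPM in the control libraries, and its log2 fold change was 1.35 with an SE of 0.26 (adjusted p = 0.000757, edgeR). This was the smallest change among the 7, and the idelalisib libraries spread more widely than the controls, with replicate 1 highest. The ratio of Oas1c to Oas1b did not separate the groups: its log2 value averaged -1.32 with idelalisib and -1.18 in controls, and the ranges overlapped (exact permutation p = 0.5, two-sided, adjusted over 3 ratios of neighbours p = 0.5). Of the exon bases of Oas1c 9.44% are shared with Gm43069 on the opposite strand, which had no more than 4 counts in any library, and 9.82% of its 50-base words occur in other genes, mainly Oas1e.

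The further mouse copies of Oas1 had almost no counts. Oas1e and Oas1h had no count in any library. Oas1d, known from the ovary, had 1, 0 and 0 counts with idelalisib and 0, 0 and 1 in controls. Oas1f had no count with idelalisib and 2 counts in control replicate 3. Within this group of near copies, then, counts were found for Oas1a, Oas1b and Oas1c and a few for Oas1g.

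Oas2 and Oas3 encode longer proteins built from repeated synthetase units, with coding sequences of 2256 and 3417 bases against 1104 for Oas1a. Oas3 was the main transcript of the family, at 207, 180 and 199 CPM in the idelalisib libraries and 40.7, 44.9 and 31.1 CPM in the control libraries. Its log2 fold change of 2.33 had the smallest standard error of the family, 0.12 (edgeR adjusted p = 1.3e-08), and rests on 9019 counts with idelalisib and 1765 in controls.

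Oas2, next to it on the chromosome, was far lower. It had 3.16, 3.54 and 3.52 CPM in the idelalisib libraries and 0.375, 0.396 and 0.643 CPM in the control libraries, and the groups were well apart. The log2 fold change was 2.85 (SE 0.34, edgeR adjusted p = 1.8e-05), with only 21 counts over the control libraries behind it. The log2 ratio of Oas2 to Oas3 averaged -5.83 with idelalisib and -6.29 in controls, with overlapping ranges (exact permutation p = 0.4, two-sided; adjusted p = 0.5).

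The OAS-like genes add a pair of ubiquitin-like domains to the synthetase fold. OASL1 makes no 2-5A, and in mice it binds the messenger RNA of Irf7 and holds back its translation. Oasl1 had 15.9, 17.4 and 20.8 CPM in the idelalisib libraries and 5.26, 4.36 and 6.15 CPM in the control libraries, and its log2 fold change was 1.78 with an SE of 0.17 (adjusted p = 2.51e-06, edgeR). OASL2 has kept the ability to make 2-5A in the mouse. Oasl2 had 17.4, 20.7 and 14.8 CPM in the idelalisib libraries and 1.19, 0.594 and 0.929 CPM in the control libraries.

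The log2 fold change of Oasl2 was 4.26 (SE 0.24, edgeR adjusted p = 2.16e-08). Its 95% interval of 3.75 to 4.78 lay above those of the other tested members, the nearest being Oas2 at 2.12 to 3.58. The neighbours Oasl2 and Oasl1 thus had close CPM with idelalisib and very different ones without. CPM makes no allowance for gene length. Per kilobase, Oasl1 was higher than Oasl2 in both groups (6.92 against 2.76 with idelalisib, 2.02 against 0.142 in controls). The log2 ratio of CPM, Oasl2 over Oasl1, was 0.13, 0.25 and -0.50 in the idelalisib libraries and -2.11, -2.81 and -2.68 in the control libraries. The groups did not overlap and differed by 2.50 on the log2 scale. The exact two-sided permutation test gave p = 0.1, the smallest value that 3 against 3 allows, and 0.3 when adjusted over the 3 ratios of neighbours. Oasl2 had only 41 counts over the control libraries, and it shares 0.138% of its 50-base words with other genes, against none for Oasl1.

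Levels of different genes were compared per kilobase of the deposited gene length (RPKM). With idelalisib the order was Oas3 at 27.6 ± 1.97, Oasl1 at 6.92 ± 0.977, Oas1b at 6.12 ± 0.456, Oas1a at 4.79 ± 0.799, Oasl2 at 2.76 ± 0.466, Oas1c at 2.05 ± 0.488, Oas2 at 0.766 ± 0.0483 and Oas1g at 0.145 ± 0.0756 RPKM (SD, n = 3). The ranges of Oasl1 and Oas1b overlapped, as did those of Oasl2 and Oas1c, and the other neighbours in the order did not. In controls Oas3 led at 5.50 ± 0.999, ahead of Oas1b at 2.24 ± 0.481 and Oasl1 at 2.02 ± 0.343 RPKM. Oas1a at 1.13 ± 0.511, Oas1c at 0.803 ± 0.0926, Oasl2 at 0.142 ± 0.0468 and Oas2 at 0.106 ± 0.0335 RPKM followed. There the ranges of Oas1b, Oasl1 and Oas1a overlapped from one to the next, as did those of Oas1a and Oas1c and of Oasl2 and Oas2. The places of Oas1a and Oas1g in both orders are uncertain, since 57.6% and 45.7% of their 50-base words occur in another gene. How multiply mapped reads were counted is not given, and the family shares below carry the same limit.

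The make-up of the family therefore differed between groups, without a test of the shares. Oas3 made up 51.9 to 57.3% of the summed RPKM with idelalisib and 39.0 to 50.7% in controls. Oasl2 made up 4.34 to 6.61% with idelalisib and 0.745 to 1.55% in controls. The shares of Oas1b, 11.2 to 12.4% with idelalisib against 13.5 to 22.9% in controls, and of Oas1c, 3.42 to 5.08% against 6.06 to 7.24%, were lower with idelalisib. The share of Oas2 was higher, at 1.39 to 1.62% with idelalisib against 0.702 to 1.28% in controls, and that of Oas1g was 0.165 to 0.431% with idelalisib and 0 in controls. Those of Oas1a and Oasl1 overlapped between groups.

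**Figure D3:**
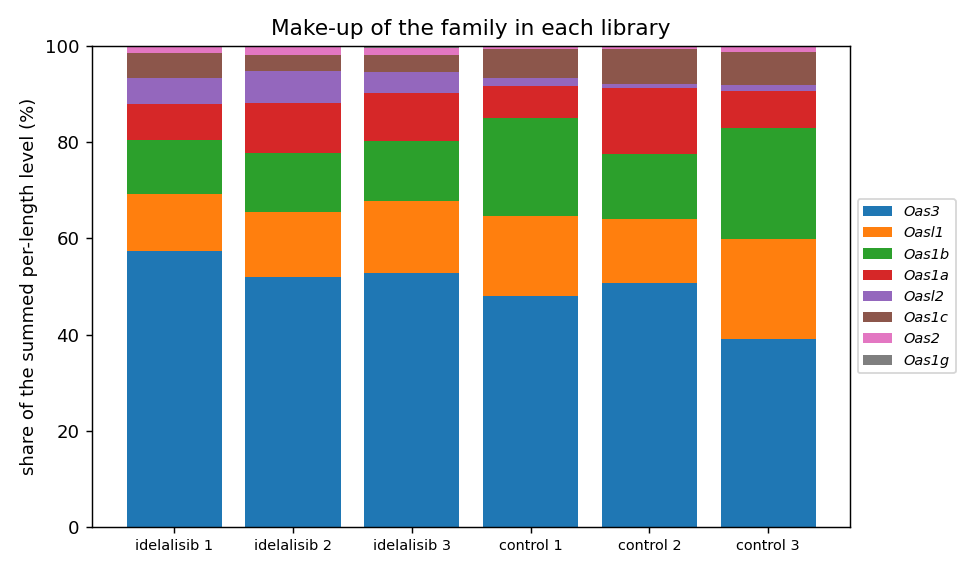
Share of each gene in the summed per-length level (RPKM) of the family, in percent, for each of the 6 libraries. Oas3 fills 51.9 to 57.3% of the bar with idelalisib and 39.0 to 50.7% in controls, and the purple band of Oasl2 is thicker with idelalisib, at 4.34 to 6.61% against 0.745 to 1.55%.

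The members did not follow a shared order among the idelalisib libraries. Oas3 and Oas1c were highest in replicate 1, Oasl2 in replicate 2, and Oas1a, Oas1b, Oasl1 and Oas1g in replicate 3. Oas2 was about level in replicates 2 and 3, at 3.54 and 3.52 CPM. Deviations from the mean of the idelalisib libraries stayed within 0.37 on the log2 scale for the 7 tested genes.

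Genes whose products bear on 2-5A or on its action were examined next. Akap7, whose protein has a domain that degrades 2-5A in mice, rose to 9.25 ± 0.724 CPM with idelalisib, against 5.51 ± 0.249 CPM in controls (log2 fold change 0.75, edgeR adjusted p = 0.00247, n = 3).

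Pde12, a phosphodiesterase shown to degrade 2-5A in human cells, was at 62.5 ± 3.39 CPM with idelalisib and 57.9 ± 2.80 CPM in controls, and did not pass the test (log2 fold change 0.11, edgeR adjusted p = 0.323), and 6.82% of its exon bases overlap Arf4 on the opposite strand. Abce1, which recycles ribosomes, was at 218 ± 34.2 CPM with idelalisib and 199 ± 2.08 CPM in controls (log2 fold change 0.14, edgeR adjusted p = 0.283). Both passed with scaling by library size alone, at log2 fold changes of 0.26 and 0.29, a scaling that moved the median of all genes to 0.16.

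**Figure D4:**
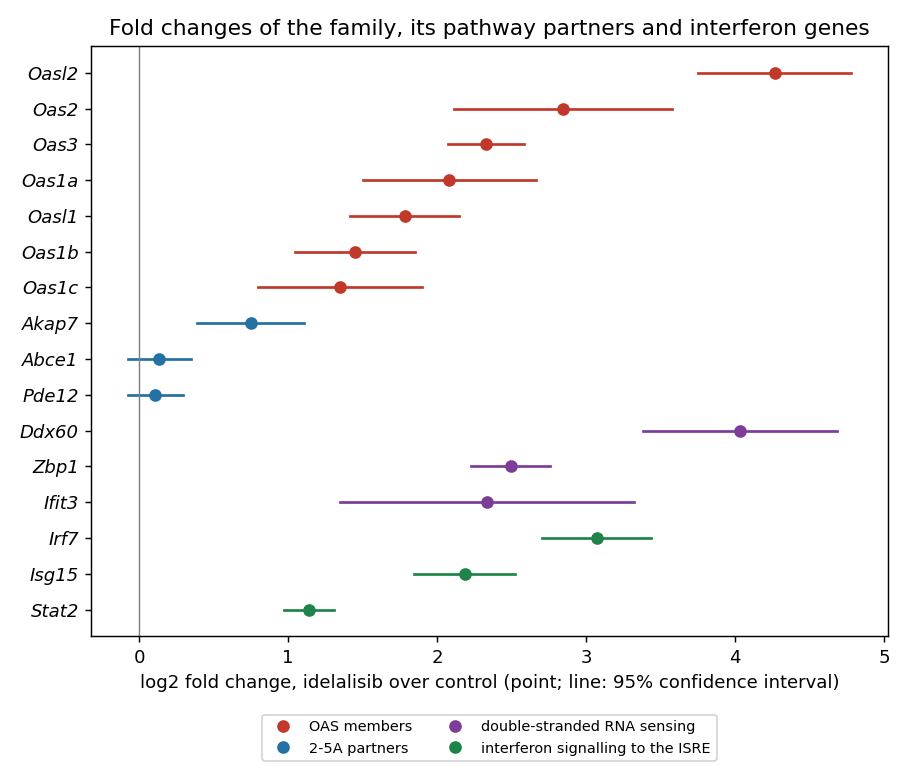
Log2 fold change of idelalisib over control (points) with its 95% confidence interval (lines) for the 7 tested family members, the genes Akap7, Abce1 and Pde12, and 3 genes each from the lists of RNA sensing and interferon signalling. Oasl2 at 4.26 and Ddx60 at 4.03 lie furthest right, and the intervals of Abce1 and Pde12 cross 0.

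Other sensors and effectors of double-stranded RNA moved mostly the same way. Of 15 tested genes 11 were higher, 1 was lower and 3 were not called, with a median log2 fold change of 1.09. Over all tested genes 22.2% were higher and 22.4% lower. Ddx60 and Ifit3 would not have passed the count filter on their controls alone. Ddx60, a helicase linked to viral RNA sensing, was at 7.75 ± 1.23 CPM with idelalisib and 0.466 ± 0.175 CPM in controls, and its log2 fold change was 4.03 with an SE of 0.30 (adjusted p = 2.83e-07, edgeR). Zbp1, a sensor of Z-form nucleic acid, rose to 118 ± 5.38 CPM with idelalisib, against 21 ± 4.37 CPM in controls (log2 fold change 2.49). Ifit3, an interferon-induced antiviral gene, had 24, 29 and 37 counts in the idelalisib libraries and 4, 3 and 10 in the control libraries. Its log2 fold change was 2.34, and 3.07 without control replicate 3. Ifit3 shares 51.2% of its 50-base words with Ifit3b. The 1 lower gene, named after its values were seen, was Ticam1, the adaptor of Toll-like receptor 3, at -0.79 (edgeR adjusted p = 4.14e-05). Tlr3 itself had no count in any library.

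Genes of the signalling path to the ISRE were split, with 10 of 20 higher and 2 lower and a median log2 fold change of 0.21. The shares over all tested genes were 22.2% higher and 22.4% lower. Irf7, the transcription factor whose translation OASL1 restrains in mice, was at 28.3 ± 2.73 CPM with idelalisib and 3.36 ± 0.814 CPM in controls and changed by 3.07 on the log2 scale, with an SE of 0.17 (adjusted p = 1.98e-08, edgeR). The ubiquitin-like modifier Isg15 and the ISRE factor Stat2 had log2 fold changes of 2.18 and 1.14. The 2 lower genes, named after their values were seen, were Irf8 at -0.53 and the interferon gamma receptor chain Ifngr1 at -0.47. Irf1 was among the 10 higher genes at 0.24 (edgeR adjusted p = 0.0427) and is named after its values were seen, because its call was lost in 7 of 15 alternatives, with adjusted p up to 0.175. The call of Usp18, an inhibitor of interferon signalling and also among the 10, was lost without control replicate 2 (adjusted p = 0.0661).

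cGAS, the DNA sensor that shares the fold of the OAS proteins, is encoded by Mb21d1. It was at 16.6 ± 1.84 CPM with idelalisib and 9.03 ± 0.785 CPM in controls (log2 fold change 0.88, edgeR adjusted p = 0.000249). In its list 2 of 6 tested genes were higher, 1 was lower and 3 were not called, with a median of 0.04. Over all tested genes 22.2% were higher and 22.4% lower, so these few calls do not set the list apart. Samhd1, which breaks down deoxynucleotides, was higher at 0.50, and the kinase gene Ikbke was lower at -0.41 (edgeR adjusted p = 0.0131). The call of Ikbke was lost without idelalisib replicate 3 (adjusted p = 0.0834) and with library size alone (0.0955). Trex1 was listed at 0, but all its exon bases lie in Atrip on the same strand.

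Counts of the listed type I interferon genes, whose proteins are main inducers of this family, were near or at 0. Of 12 interferon genes 3 could be tested, and of these Ifnl2 and Ifnl3 would not have passed the count filter on their controls alone. Ifng, the interferon of Th1 cells, was lower, at 146 ± 14.8 CPM with idelalisib and 388 ± 29.0 CPM in controls (log2 fold change -1.41, edgeR adjusted p = 9.25e-08), and 26% of its exon bases are also in Gm49751 on the same strand. The interferon lambda genes Ifnl2 and Ifnl3 were higher at low counts: Ifnl2 had 27, 17 and 57 counts with idelalisib and 13, 11 and 2 in controls (log2 fold change 1.90, edgeR adjusted p = 0.00872), and Ifnl3 had a log2 fold change of 1.82 (edgeR adjusted p = 0.00409). Reads of this pair are uncertain, since 31.7% of the 50-base words of Ifnl2 and 38.8% of those of Ifnl3 are shared between them, and the call of Ifnl2 was lost without idelalisib replicate 3 (adjusted p = 0.0555). Ifnb1 had 2, 0 and 1 counts with idelalisib and 0, 1 and 0 in controls, and Ifna4 had 2, 1 and 6 counts with idelalisib and none in controls. The remaining 7 genes had between 0 and 6 counts in each library. The 6 listed Ifna genes share 6.44 to 67.4% of their 50-base words with other genes, mostly other Ifna genes and some outside the list, so their counts are uncertain.

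The genes outside these lists whose profile over the 6 libraries was nearest to the family average were Ly6c2, Samd9l, Slfn1, Fap and Casr. Nearness was the root-mean-square distance of mean-centred log2 CPM among 13220 candidates, and was 0.115, 0.122, 0.131, 0.143 and 0.15. Their log2 fold changes lay between 2.13 for Samd9l and 2.48 for Ly6c2, close to the family median, as this measure requires. Ly6c2 shares 14.4% of its 50-base words with other genes, mainly Ly6c1.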

How the data were processed

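Poly(A) RNA of 6 libraries was sequenced, and the authors deposited raw read counts per gene, with other values such as gene length in bases, in 1 table. The tools named, per the submitters' processing notes, were fastp, HISAT2 (2.0.5) and featureCounts (1.5.0-p3), on build mm10; whether counting used strand or multiply mapped reads, and which annotation, is not given in the sources used here. Coordinates and exon lengths of the 8 members equal those of GENCODE M21. Genes were filtered with filterByExpr (minimum count 10, minimum total 15), leaving 14530, and TMM factors entered the edgeR 4.0.16 test (R 4.3.3; robust quasi-likelihood F test, group alone), with Benjamini-Hochberg adjustment over all tested genes and calls under 0.05. Each SE is the log2 fold change over the root of F. CPM values use TMM-scaled totals. Fits were tested on simulated data. Named genes were the members, the 2-5A partners, the 3 called genes with the largest change per list averaging at least 1 CPM, and the 5 nearest profiles. Some genes that this rule names are not reported here. Members and lists were chosen with earlier results of these data known. Permutation tests used SciPy 1.17.1. Per-gene exact tests cannot go below p = 0.1, which every member reached. Word sharing used GENCODE M21 transcripts and coding identity used Biopython 1.88. Replicates were no duplicates, since chi-square per degree of freedom between them was 4.63 to 18.2.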

Additional observations from a re-analysis of the deposited data

How the results depend on the processing

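The 7 tested members kept their direction and their call under all 15 alternatives run: RLE, upper-quartile and library-size scaling, DESeq2 1.42.0, limma-voom 3.58.1, no count filter, a CPM of at least 1 in 3 libraries, the replicate block, an adjusted p under 0.01 and the 6 fits that left out 1 library. The log2 fold change of Oasl2 ranged from 4.03 to 4.52 over these, that of Oas3 from 2.19 to 2.48 and that of Oas1c from 1.15 to 1.5, where the adjusted p reached 0.00589. With no count filter Oas1g was tested too and was called (edgeR adjusted p = 0.00541). Genes called over the whole table numbered 6479 of 14530 tested, and 5103 to 7180 when 1 library was left out, the highest without idelalisib replicate 2. Library size alone put 68.5% of calls on the higher side, against 49.7%. Genes called in the pathway lists numbered 32 of 48 tested, 27 of them higher, and 30 to 39 under the alternatives. Over all tested genes 22.2% were called higher and 22.4% lower. Deviations of same-numbered libraries correlated at 0.067, -0.129 and -0.088, and the highest value of any pair was 0.174, for idelalisib replicate 2 with control replicate 3. With 3 libraries per group these values cannot show whether same-numbered cultures shared a source. With the replicate block 5961 genes were called, and all 7 members were among them. Low counts limit Oas1g, Oas2 and Oasl2 most, with 0, 21 and 41 counts over the control libraries.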

Other observations

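The tested protein-coding genes next to the 2 clusters on chromosome 5 were examined after the data were seen. Beside the Oas cluster, Dtx1 was at 9.16 ± 2.16 CPM with idelalisib and 10.7 ± 1.66 CPM in controls (log2 fold change -0.22, edgeR adjusted p = 0.365), and Ptpn11 was at 156 ± 4.15 CPM with idelalisib and 141 ± 5.16 CPM in controls (0.15, edgeR adjusted p = 0.127). Beside the Oasl pair, 2610524H06Rik was higher at 1.08 (SE 0.20, edgeR adjusted p = 0.000728) and 2210016L21Rik at 0.39 (SE 0.13, edgeR adjusted p = 0.0208).

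Apol9a and Apol9b, whose RefSeq windows hold the same 16-base word as those of Oas1a and Oas1g, were almost without counts. Apol9b had 1, 1 and 3 counts with idelalisib and 0, 1 and 0 in controls, and Apol9a had 1 count in idelalisib replicate 2 alone.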
